A study of Mus musculus with 6 samples.

Results

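Rab proteins are small GTPases that sit on the membranes of the secretory and endocytic pathways. A guanine nucleotide exchange factor loads a Rab with GTP, which lets it recruit effectors such as motors, tethers and fusion factors, and a GTPase-activating protein returns it to the GDP form. In endocrine cells the Rab3 and Rab27 proteins act on secretory granules, Rab2 and Rab8 act earlier and later on the same route, and other Rabs mark the Golgi, endosomes, lysosomes and recycling carriers. Members were taken as the gene symbols made of Rab, a number and at most a short suffix, which gave 58 of the 23349 genes in the table. The same search without its last condition also took 9 symbols of Rab partners, namely Rab11fip1 to Rab11fip5, Rab3gap1, Rab3gap2, Rab3il1 and Rab3ip, and these were counted with the regulators and effectors.

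RNA came from mouse corticotrope tumour cells, the AtT-20 line in its iPAM form. In these cells PAM, the enzyme that amidates the ends of secreted peptides, can be switched on with doxycycline. The 3 basal libraries came from cells grown without the drug, and the 3 induced libraries from cells given doxycycline at 4 micrograms per ml for 48 h; both groups were grown with G418 and hygromycin. There was no group with doxycycline but without the PAM transgene, so raised PAM and the drug itself cannot be told apart. The labels do not say whether the 3 libraries of a group were separate cultures, so p-values speak only of how far apart these libraries lay, a spread that can be technical. Neither is it stated whether the line is a single clone.

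Values are TPM, transcript levels scaled so that each library has the same total, from amplicon libraries with a stated 16.6 M reads each. Pam read 92.6, 82.8 and 66.9 TPM in the basal libraries and 507, 399 and 258 TPM in the induced ones. Every induced library was above every basal one, with a log2 difference of 2.21 (95% interval 1.59 to 2.82, limma adjusted p = 0.0210). The limma adjusted p of Pam was 0.0699 to 0.181 when any 1 library other than induced library 3 was left out, 0.00509 without induced library 3, and 2.35e-05 with all 6 and the block described below. Of 7 corticotrope markers, 6 had a mean above 1 TPM, and their summed level was 23121 to 32110 TPM in the basal and 21560 to 30494 TPM in the induced libraries. Pomc, which melanotropes share, made up most of that sum, at 21916 to 31054.5 TPM basal and 20445.8 to 29239.3 TPM induced. Avpr1b was the one below 1 TPM. Of 9 markers of other pituitary cells only Ghrhr passed 1 TPM, 4 were at 0 in every library, and the sums were 2.61 to 3.89 TPM and 1.78 to 3.09 TPM; of 3 melanotrope markers only Pax7 passed 1 TPM. The libraries numbered 3 stood apart from numbers 1 and 2 in both groups. The median Rab, on the log2(TPM + 1) scale, was 5.45, 5.38 and 5.05 in basal libraries 1, 2 and 3, and 5.6, 5.37 and 4.79 in induced libraries 1, 2 and 3. The median of all genes tested also fell, at 4.74, 4.64 and 4.54 in the basal and 4.72, 4.58 and 4.42 in the induced libraries.

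Of the 58 Rabs, 50 had a mean of at least 1 TPM and were tested. Rab19, Rab32, Rab38, Rab42 and Rab7l1 (the older symbol of Rab29) were listed at 0 in all libraries, and Rab20, Rab33a and Rab44 stayed below a mean of 1 TPM. In the two-group comparison by limma, with p-values adjusted over all 12400 genes tested, 0 of the 50 Rabs passed the threshold of 0.05. Of all genes tested 148 passed, or 1.19%, of which 0.129% of all genes were higher and 1.06% lower in the induced libraries. At an unadjusted p under 0.05 there were 5 Rabs of 50, against 15.1% of all genes. The labels state no pairing of the column numbers 1 to 3. Deviations from the group means correlated at 0.46 and 0.72 between equal numbers 1 and 3, but at 0.18 for number 2. Induced library 2 correlated better with basal library 1 (0.32). Block p-values here rest on taking the numbers as pairs, which number 2 did not bear out. With the number taken as a block in limma 8 of 50 Rabs passed, 2 higher and 6 lower in the induced libraries. The background under the block was 22.3% of all genes, 8.23% higher and 14.0% lower, so the share of Rabs was not above that of all genes in either direction. The 2 higher were Rab8a and Rab37, and the 6 lower were Rab3b, Rab27a, Rab30, Rab33b, Rab15 and Rab40b. Without both libraries numbered 3, limma called Rab30, Rab33b and Rab37, or 3 of 50, against 8.14% of all genes.

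Over the 50 Rabs the median log2 difference between induced and basal was -0.01, with 24 above and 26 below 0, beside a median of -0.04 over all genes tested. The differences ran from -0.85 to 0.73. The induced and basal libraries did not overlap for 8 Rabs, 5 higher and 3 lower, against 21.6% of all genes, 9.04% higher and 12.6% lower. All 3 equal-numbered pairs went one way for 26 Rabs, 12 higher and 14 lower, against 56.2% of all genes. By class, the medians were 0.03 for the 10 secretory Rabs, -0.11 for 11 Rabs of the endoplasmic reticulum and Golgi, -0.08 for 11 endosomal Rabs, 0.04 for 12 recycling Rabs and -0.11 for the 6 others. The scale of the authors' DESeq2 table was estimated only from the 195 genes listed there as past its threshold, 148 of them higher. Applied to all genes, it lifts their median to 0.36. The Rab median then became 0.40 and 46 of the 50 differences were above 0. Directions below are read against 0 on the TPM scale, where the median gene lay at -0.04, and depend on that scale. In bulk RNA, fewer cells of a kind and less RNA per cell cannot be told apart.

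**Figure D1:**
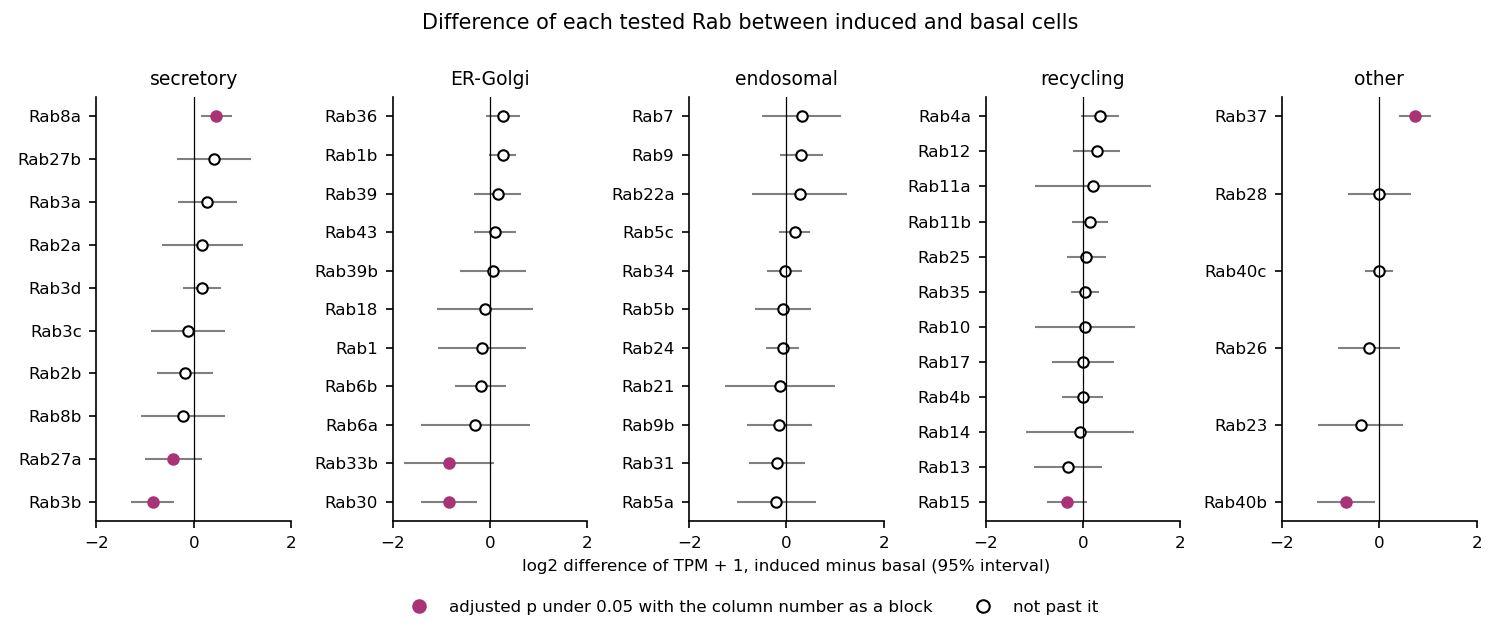
Difference between induced and basal libraries in log2(TPM + 1) for the 50 tested Rabs by class, with 95% intervals from limma (3 libraries per group); filled points passed an adjusted p of 0.05 with the column number as a block. Rab37 and Rab8a are the filled points above 0, and Rab3b, Rab33b and Rab30 lie lowest, between -0.85 and -0.84.

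Promoter sequences are given for 4 of the 8 Rabs that passed with the block, those with a single start in the RefSeq tables of GRCm38.p6, so that the promoters of one higher and several lower genes can be read side by side. Each is the 250 bases before the start, 5' to 3' on the gene's own strand. Capitals mark the GC box GGGCGG on either strand, bound by Sp1-like factors, and the letters TATAAA of the TATA box. Coordinates are chr3:51483716-51483965 (plus strand) for Rab33b, chr4:108878820-108879069 (plus) for Rab3b, chr11:121388252-121388501 (minus) for Rab40b and chr8:72160950-72161199 (plus) for Rab8a.
Rab33b: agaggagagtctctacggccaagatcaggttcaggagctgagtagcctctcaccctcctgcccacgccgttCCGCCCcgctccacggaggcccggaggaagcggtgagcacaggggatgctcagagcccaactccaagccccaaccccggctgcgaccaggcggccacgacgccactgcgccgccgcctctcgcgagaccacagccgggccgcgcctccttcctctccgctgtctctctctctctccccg
Rab3b: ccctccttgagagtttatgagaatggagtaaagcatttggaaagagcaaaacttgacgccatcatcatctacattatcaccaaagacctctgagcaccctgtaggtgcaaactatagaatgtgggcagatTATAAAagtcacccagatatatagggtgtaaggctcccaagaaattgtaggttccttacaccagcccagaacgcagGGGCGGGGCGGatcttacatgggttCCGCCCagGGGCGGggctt
Rab40b: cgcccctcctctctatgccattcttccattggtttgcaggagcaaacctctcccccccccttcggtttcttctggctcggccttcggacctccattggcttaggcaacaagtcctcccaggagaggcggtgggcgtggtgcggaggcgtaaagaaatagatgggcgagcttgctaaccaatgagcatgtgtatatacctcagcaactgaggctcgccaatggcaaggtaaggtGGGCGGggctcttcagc
Rab8a: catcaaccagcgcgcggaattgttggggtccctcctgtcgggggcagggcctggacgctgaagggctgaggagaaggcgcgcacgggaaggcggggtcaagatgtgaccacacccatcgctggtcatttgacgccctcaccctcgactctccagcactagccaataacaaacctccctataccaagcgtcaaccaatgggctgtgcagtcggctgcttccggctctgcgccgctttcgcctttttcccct
The GC box was found 4 times before Rab3b, with 2 of its copies sharing a base in one run, once before Rab33b, once before Rab40b and nowhere before Rab8a. A GC box occurs in 32.7% of 32851 such windows across the genome. Of these 4 windows only that of Rab3b holds TATAAA, beginning at position 131 of 250 from the 5' end; 12.4% of all windows hold it. No match was found in these 4 windows for the E-box CACGTG (6.02% of windows), the AP-1 site TGANTCA (6.75%) or the cAMP response element TGACGTCA (1.55%). The GC content of these windows was 69.2% for Rab33b, 61.6% for Rab8a, 57.6% for Rab40b and 48.8% for Rab3b, against a median of 52.4% over all windows.

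Among the secretory Rabs, Rab8a stood higher and Rab3b lower in the induced libraries, both without overlap. Rab27a was lower in each numbered pair, but its groups overlapped. These passed with the block, which rests on a pairing the labels do not state. No secretory Rab passed limma without the block. Rab8a, which drives exocytic and ciliary carriers towards the plasma membrane, read 56.9, 55.3 and 52.7 TPM in the basal libraries and 85.8, 71.5 and 72.1 TPM in the induced ones. The groups did not overlap, and the mean was 1.39-fold higher (55.0 ± 2.12 against 76.5 ± 8.11 TPM, SD, n = 3). The log2 difference was 0.46 (95% interval 0.15 to 0.78, limma adjusted p = 0.162, and 0.00808 with the block). Its relative Rab8b, at 12.4, 9.75 and 5.73 TPM basal and 10.8, 8.66 and 4.38 TPM induced, overlapped throughout and differed by -0.22 (95% interval -1.08 to 0.64).

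Rab3 proteins sit on secretory granules and act in docking and calcium-triggered release. Rab3b read 5.20, 4.29 and 4.75 TPM in the basal libraries and 2.04, 2.84 and 1.78 TPM in the induced ones. Every induced library was below every basal one, and the basal mean was 2.14-fold the induced mean. The log2 difference was -0.85 (95% interval -1.28 to -0.41, limma adjusted p = 0.0868, and 0.00929 with the block). For every other Rab3 gene the groups overlapped. Rab3a, the main isoform of neurons and endocrine cells, read 28.2, 21.3 and 18.1 TPM basal and 33.1, 31.5 and 19.1 TPM induced. Its difference was 0.28 (95% interval -0.33 to 0.89), and induced library 3 lay below basal libraries 1 and 2. Rab3d, an isoform of exocrine and endocrine granules, read 22.3, 20.3 and 20.7 TPM basal and 25.3, 19.4 and 27.2 TPM induced, a difference of 0.16. Rab3c read 11.7, 7.95 and 5.95 TPM basal and 10.3, 8.69 and 4.74 TPM induced, a difference of -0.11. For both of these the interval covers 0, from -0.23 to 0.56 and from -0.87 to 0.65.

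Rab27a and Rab27b, which dock granules at the plasma membrane through synaptotagmin-like and exophilin effectors, had differences of opposite sign. Rab27a read 88.2, 64.9 and 55.1 TPM basal and 62.6, 55.4 and 37.8 TPM induced. Each induced library was below the basal library of the same number, though the groups overlapped. The log2 difference was -0.41 (95% interval -1.0 to 0.17, limma adjusted p = 0.522, and 0.0177 with the block), and -0.21 without induced library 3. Rab27b read 11.6, 9.42 and 6.82 TPM basal and 17.2, 14.9 and 7.46 TPM induced. Here each induced library was above its basal counterpart, and the difference of 0.42 (95% interval -0.35 to 1.18) had an adjusted p of 0.649 in limma and 0.0501 with the block. Leaving out 1 library in turn gave 0.20 to 0.75 for Rab27b. Rab2a, which acts between the endoplasmic reticulum and Golgi and in the making of dense-core granules, read 321, 254 and 170 TPM basal and 366, 329 and 167 TPM induced. Its difference was 0.18 (95% interval -0.65 to 1.0), and library 3 was lowest in both groups. Rab2b read 12.6, 11.1 and 9.09 TPM basal and 12.8, 9.60 and 6.76 TPM induced, with a difference of -0.18 (95% interval -0.76 to 0.39).

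**Figure D2:**
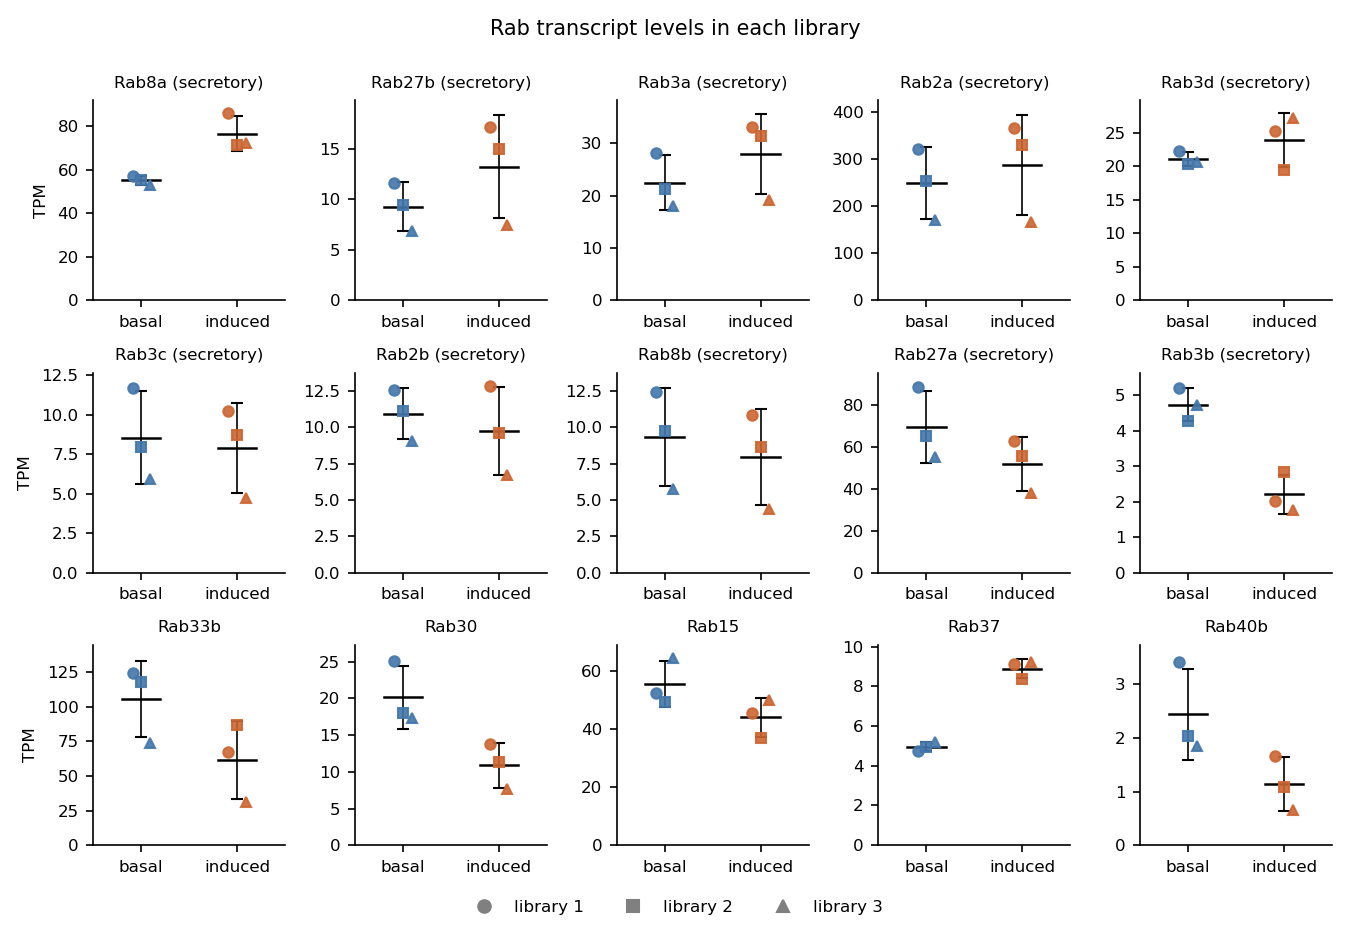
TPM in every library for the 10 secretory Rabs and for Rab33b, Rab30, Rab15, Rab37 and Rab40b; points are libraries 1 to 3 of each group, lines are means and bars are SD. Induced points lie above all basal points for Rab8a and Rab37 and below them for Rab3b, Rab30 and Rab40b.

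Among the Rabs of the endoplasmic reticulum and Golgi, Rab33b and Rab30 were lower and passed with the block. Rab33b, a Golgi Rab that also takes part in autophagosome formation, read 124, 118 and 73.8 TPM basal and 67.3, 86.5 and 31.2 TPM induced. Each induced library was below the basal one of its number, and the groups overlapped only because basal library 3 lay under induced library 2. Its mean was 1.71-fold higher in the basal group, with a log2 difference of -0.84 (95% interval -1.76 to 0.07, limma adjusted p = 0.377, and 0.00331 with the block). Leaving out induced library 3 brought it to -0.42. Rab30, another Golgi Rab, read 25.1, 18.0 and 17.4 TPM basal and 13.7, 11.4 and 7.65 TPM induced. The groups did not overlap, and the difference was -0.84 (95% interval -1.42 to -0.26, limma adjusted p = 0.165, and 0.00202 with the block). Without the libraries numbered 3, the differences were -0.66 for Rab33b and -0.72 for Rab30, with limma adjusted p-values of 0.0102 and 0.0342.

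Rab1b, which with its near relative Rab1a (Rab1 in the table) carries cargo from the endoplasmic reticulum to the Golgi, read 105, 104 and 101 TPM basal and 133, 121 and 118 TPM induced. The groups did not overlap, with a difference of 0.26 (95% interval -0.02 to 0.53, limma adjusted p = 0.381). Rab36 read 11.7, 11.7 and 9.92 TPM basal and 14.8, 12.5 and 13.4 TPM induced, without overlap and with a difference of 0.27 (95% interval -0.09 to 0.62). The other 7 tested members of this class (Rab1, Rab6a, Rab6b, Rab18, Rab39, Rab39b and Rab43) overlapped, with differences from -0.31 for Rab6a to 0.16 for Rab39. Rab1 and Rab1b, like several pairs below, are close in sequence, so reads may have been split between them.

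No endosomal Rab separated the groups and none passed with the block. Rab7, which directs late endosomes to lysosomes, read 203, 182 and 284 TPM basal and 233, 188 and 462 TPM induced. Its library 3 was the highest of each group, and the difference was 0.32 (95% interval -0.50 to 1.13, limma adjusted p = 0.773). Rab9, which returns mannose 6-phosphate receptors from late endosomes to the Golgi, read 41.6, 38.4 and 35.2 TPM basal and 57.6, 50.8 and 36.9 TPM induced. Induced libraries 1 and 2 were above all basal ones and library 3 was not, for a difference of 0.31 (95% interval -0.14 to 0.76). The lowest of the class were Rab5a of early endosomes, at 72.1, 60.1 and 38.7 TPM basal and 63.6, 57.0 and 29.4 TPM induced, and Rab31, at 15.7, 14.0 and 12.4 TPM basal and 15.4, 13.9 and 8.17 TPM induced. Their differences were -0.21 and -0.20. The other 7 (Rab5b, Rab5c, Rab9b, Rab21, Rab22a, Rab24 and Rab34) lay between -0.15 for Rab9b and 0.27 for Rab22a.

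Of the 12 recycling Rabs, 1 passed with the block, Rab15. Rab15, which acts in recycling endosomes, read 52.4, 49.4 and 64.3 TPM basal and 45.5, 36.8 and 49.8 TPM induced. Each induced library was below its basal counterpart, with overlap only between basal library 2 and induced library 3. The difference was -0.33 (95% interval -0.74 to 0.08, limma adjusted p = 0.461, and 0.0371 with the block), and -0.20 without induced library 2. Rab4a, of the fast recycling route, read 16.0, 13.3 and 15 TPM basal and 20.6, 20.8 and 16.2 TPM induced. It did not overlap, by a margin that rested on induced library 3, and differed by 0.35 (95% interval -0.03 to 0.73, limma adjusted p = 0.376). Rab12 read 46.9, 44.0 and 32.1 TPM basal and 55.4, 54.3 and 40.0 TPM induced, higher in each numbered pair, with a difference of 0.28 (limma adjusted p = 0.0552 with the block). Rab13, of tight junctions and surface delivery, read 8.37, 8.13 and 12.6 TPM basal and 4.91, 7.56 and 11.2 TPM induced, a difference of -0.31 (95% interval -1.01 to 0.40). The other 8 ranged from -0.06 for Rab14 to 0.20 for Rab11a, a Rab of the recycling endosome whose libraries spread from 57.3 to 147 TPM basal and 53.6 to 170 TPM induced. Close to 0 were Rab35 at 0.05 (-0.24 to 0.34) and Rab4b at -0.01 (-0.43 to 0.42).

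In the remaining class, Rab37, a Rab found on secretory granules of mast cells, read 4.73, 4.95 and 5.21 TPM basal and 9.13, 8.35 and 9.21 TPM induced. The groups stood apart with little spread, and the induced mean was 1.79-fold the basal mean. The difference was 0.73 (95% interval 0.40 to 1.07, limma adjusted p = 0.0689, and 0.00425 with the block), and 0.74 without the libraries numbered 3 (adjusted p = 0.0440). Rab40b, which recruits a ubiquitin ligase through its SOCS box, read 3.42, 2.04 and 1.85 TPM basal and 1.66, 1.09 and 0.658 TPM induced. It was lower without overlap, with a difference of -0.68 (95% interval -1.29 to -0.08, limma adjusted p = 0.270, and 0.0254 with the block). Rab23, which acts in cilia and Hedgehog signalling, read 75.2, 67.8 and 45.7 TPM basal and 64.2, 61.6 and 26.1 TPM induced, a difference of -0.38 (95% interval -1.25 to 0.49). Rab28 read 128, 120 and 84.1 TPM basal and 136, 129 and 74.3 TPM induced, with a difference of 0.00. Rab26, of secretory granules, and Rab40c completed this class at -0.21 and -0.01.

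Scaling a library cancels in a ratio between Rabs of one number, apart from the effect of the added 1 on low genes such as Rab3b and Rab40b. There were 19 pairs in 12 subfamilies, and in 7 pairs the ratio did not overlap between groups, against 285 of 1225 pairs (23.3%) of any 2 tested Rabs. As log2 ratios of (TPM + 1), Rab27a over Rab27b was 2.83, 2.66 and 2.84 in the basal and 1.81, 1.82 and 2.2 in the induced libraries, or 2.78 ± 0.10 against 1.94 ± 0.22 (SD, n = 3). Rab3a over Rab3b was 2.24, 2.08 and 1.73 against 3.49, 3.08 and 2.85, or 2.01 ± 0.26 against 3.14 ± 0.32. Rab3b over Rab3d was -1.91, -2.01 and -1.92 against -3.12, -2.41 and -3.34. The remaining 4 that did not overlap were Rab3a over Rab3c, Rab3b over Rab3c, Rab9 over Rab9b and Rab40b over Rab40c, with changes of 0.39, -0.73, 0.46 and -0.68. By a two-sided exact permutation test each of these 7 had p = 0.1, the smallest that 3 against 3 libraries allow, and 0.271 after adjustment over the 19 pairs. The Rab3 pairs share genes and are not independent.

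**Figure D3:**
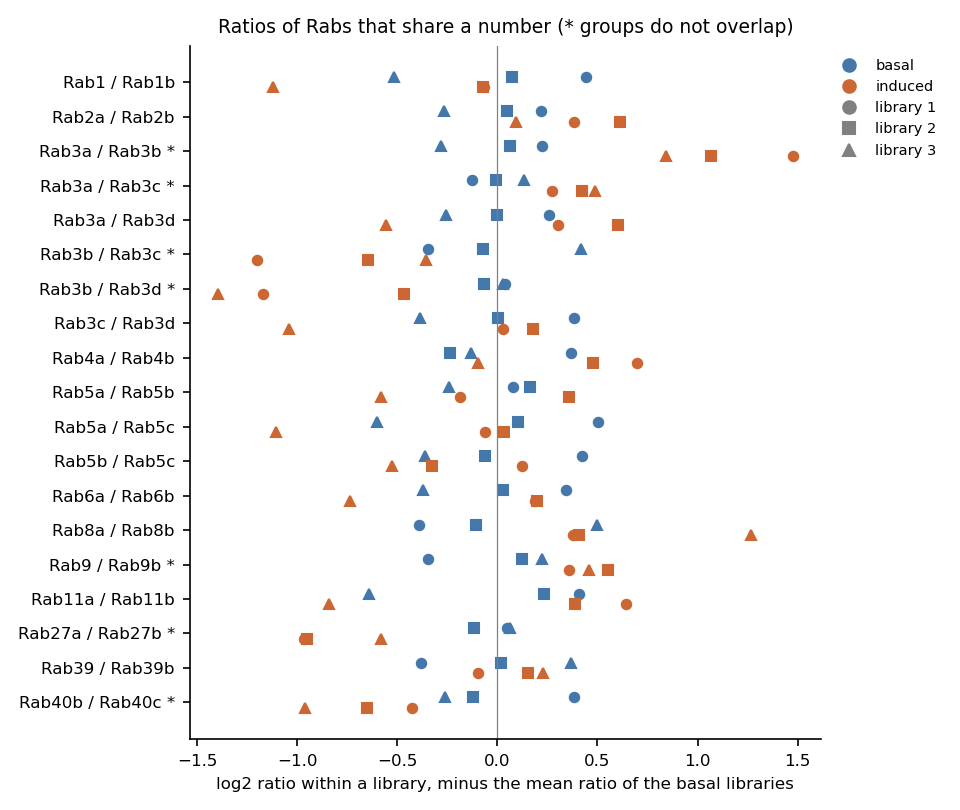
Log2 ratio of TPM + 1 between Rabs of the same number in each library, minus the basal mean, for 19 pairs; colours are the 2 groups, symbols the library numbers, and an asterisk marks the 7 pairs whose groups do not overlap. The mean for Rab3a over Rab3b is 1.13 above the basal mean, and that for Rab27a over Rab27b is -0.83 from it.

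Much of the Rab spread within a group came from the libraries numbered 3. In 36 of 50 Rabs library 3 lay below the mean of libraries 1 and 2 in both groups, in 9 above it in both, and in 5 the groups disagreed. Of 12399 genes over the whole table, the same counts were 6176, 4252 and 1971. Across the 50 Rabs, the deviation of library 3 in the basal group correlated with that in the induced group at a Pearson r of 0.949 and a Spearman rho of 0.941, against 0.717 and 0.850 over all genes; genes within a library are not independent and no p is given. The deviations also followed the GC content of the transcript, at r = 0.718 basal and 0.682 induced over 49 Rabs, against 0.429 and 0.488 over all genes. The same deviations correlated with the log2 of transcript length at r = -0.439 basal and -0.412 induced, against -0.199 and -0.165 over all genes. Among the lowest were Rab11a (-1.13 and -1.57), Rab21 (-1.07 and -1.51) and Rab6a (-0.92 and -1.50), with GC contents of 39.5%, 42.7% and 44.6%. Rab7 went the other way at 0.56 and 1.14 with 48.7% GC, as did Rab17 at 0.41 and 0.83 with 55.6%. The difference between induced and basal was correlated with GC at r = 0.19 over the same Rabs. With each library corrected for GC content by loess, limma called 2 of the 50 Rabs, Rab30 and Rab37, against 3.06% of all genes.

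**Figure D4:**
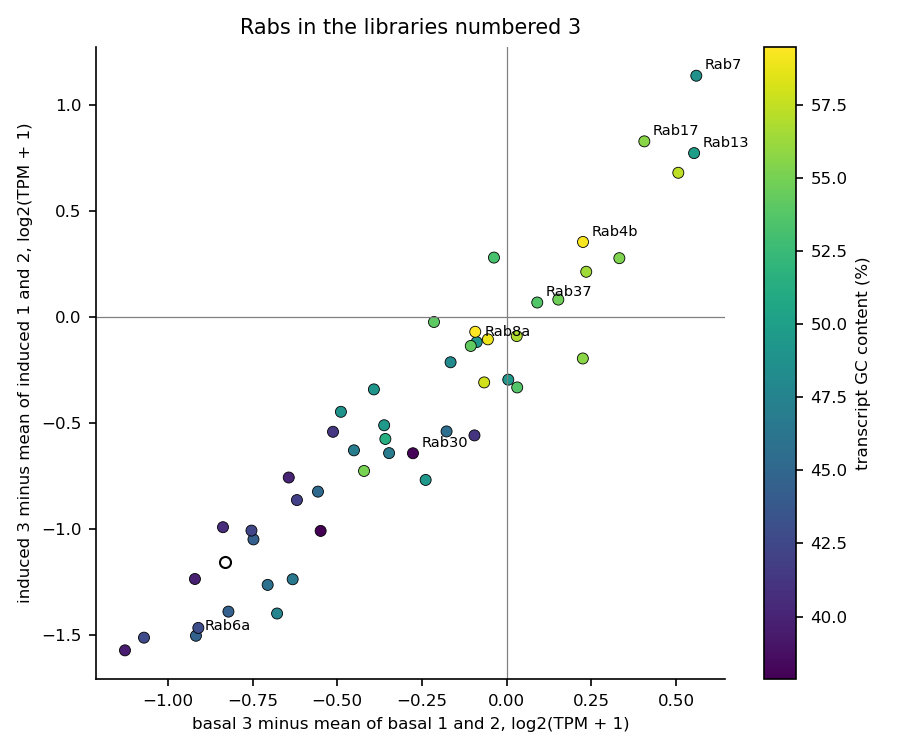
Deviation of library 3 from the mean of libraries 1 and 2 in log2(TPM + 1), basal on the horizontal and induced on the vertical axis, for 50 Rabs, coloured by transcript GC content (the open circle is Rab1, with no GC value). The Rabs run along a line from Rab11a at -1.13 and -1.57 to Rab7 at 0.56 and 1.14.

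Of the listed Rab regulators and effectors, 126 were in the table and 114 were tested. In limma 0 passed, and 12 had an unadjusted p under 0.05, against 15.1% of all genes. With the block 18 passed, 5 higher and 13 lower, a share under the 22.3% of all genes. The median log2 difference of the 114 was -0.08, with 35 above and 79 below 0. All genes tested also leaned lower, with a median of -0.04, 5567 above and 6833 below 0. By role, the block called 0 of 7 GDP dissociation, escort and prenylation factors, 6 of 28 exchange factors, 6 of 36 GTPase-activating proteins, 5 of 14 effectors of secretory Rabs and 1 of 29 other effectors. Sytl4, known as granuphilin, which binds Rab27a and Rab3 on granules, read 3.66, 4.01 and 4.41 TPM basal and 9.67, 7.62 and 7.04 TPM induced. It did not overlap, with a difference of 0.85 (95% interval 0.44 to 1.26, limma adjusted p = 0.0750, and 0.00546 with the block). Sytl1, of the same family, went the other way, at 19.6, 25.3 and 34.9 TPM basal and 11.2, 12.8 and 21.3 TPM induced. Its difference was -0.79 (95% interval -1.48 to -0.10, limma adjusted p = 0.264, and 0.00140 with the block). Of the 5 effectors of secretory Rabs past the block, 2 were higher and 3 lower. Rab3il1, an exchange factor for Rab8 also known as GRAB, read 0.588, 1.03 and 0.922 TPM basal and 1.95, 2.04 and 2.82 TPM induced. It was also higher in all 3, by 0.82 (limma adjusted p = 0.103, and 0.0156 with the block). Micall2, an effector of Rab8 and Rab13, read 15.8, 23.2 and 24.7 TPM basal and 12.7, 11.4 and 16.4 TPM induced, a difference of -0.61 (limma adjusted p = 0.0146 with the block).

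Dennd2c, an exchange factor, read 4.05, 3.42 and 3.81 TPM basal and 2.16, 1.94 and 1.84 TPM induced, lower without overlap by -0.68 (limma adjusted p = 0.0984, and 0.0157 with the block). Tbc1d8, of the TBC family of GTPase-activating proteins, read 44.6, 41.0 and 43.9 TPM basal and 33.7, 28.3 and 29.3 TPM induced. It was lower without overlap, by -0.49 (limma adjusted p = 0.146, and 0.00709 with the block). Tbc1d7, which is part of the TSC complex, read 24.4, 27.0 and 20.9 TPM basal and 39.2, 31.7 and 30.3 TPM induced, higher by 0.47 (limma adjusted p = 0.0183 with the block). Appl2, an effector of Rab5, read 71.1, 64.1 and 66.1 TPM basal and 57.3, 50.2 and 56.3 TPM induced, a difference of -0.29 (limma adjusted p = 0.0437 with the block). Rabggtb, a subunit of the prenylating enzyme, and Rab11fip1 differed by -0.27 and -0.46 and passed neither fit.

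The authors' deposited table from Cuffdiff lists 1548 genes, and the listed genes cover 12.5% of those tested here and 7 of the 50 tested Rabs. In that authors' deposited table Rab30 (log2 change -0.859, q = 0.000414), Rab33b (-0.699), Rab3b (-1.06) and Rab40b (-1.07) are lower, and Rab37 (0.860), Rab27b (0.543) and Rab8a (0.496) are higher. The authors' deposited table from DESeq2 lists 195 genes, or 1.57% of those tested, and 2 of the 50 tested Rabs, Rab8a (0.905, adjusted p = 0.00216) and Rab1b (0.681, adjusted p = 0.00252). Its log2 changes lay a median of 0.42 above those from mean TPM. The authors' deposited limma table of 146 genes holds 0 Rabs. By its name it was cut at a B of 0, limma's log-odds of a difference, and not at an adjusted p or q. Of the 126 regulators and effectors, the authors' deposited table from Cuffdiff lists 13, among them Sytl4 (log2 change 1.03) higher and Sytl1 (-0.807) lower. The authors' deposited tables from DESeq2 and limma list none of them.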

How the data were processed

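RNA of AtT-20 iPAM cells was read in 6 amplicon libraries. Build mm10 is named in the submitters' processing notes, which list these of the authors' tools: Cuffdiff 2.2.0, Cufflinks 2.2.0, TopHat2 2.0.9, Bowtie2 2.1.0.0, limma and DESeq2. Their settings and annotation are not given in the sources used. The deposited sheet carries the name FPKM, yet every column of it adds up to 1000000; its deposited values are therefore TPM, in which depth is lost. Per the file headers, the authors' deposited tables give FPKM per group, log2 fold changes and p-values or q-values. A column has a number where the labels have a letter, and could be tied to a group but not to one sample.

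Values were taken as log2(TPM + 1) with a filter at a mean of 1 TPM and compared in limma 3.58.1 (R 4.3.3, lmFit, eBayes with trend), with Benjamini-Hochberg adjustment over 12400 genes; the script was tested on simulated data. "-fold" values are ratios of mean TPM, and differences are on the log2(TPM + 1) scale, which understates the change of low genes. Reads from amplicons are not in proportion to transcript length, so levels of different genes cannot be compared directly. They were set together only as ratios compared across libraries, in the marker sums and in the cut at 1 TPM. The test was written for FPKM and serves TPM. Deviations of equal-numbered libraries from their group means correlated at 0.46, 0.18 and 0.72 for numbers 1, 2 and 3. The number was taken as a pairing, which the labels do not state, and given as a block beside the main fit. Induced library 2 correlated better with basal library 1 (0.32), so number 2 did not bear out the pairing. Figures were drawn with matplotlib 3.10.9 in Python 3.11.15. GC content was known for 99.0% of tested genes, from GENCODE transcripts of GRCm38. Promoters are from RefSeq tables of GRCm38.p6.

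Members, gene lists and tests were chosen with earlier results of these data known. Named genes were, by rule, Pam, every secretory Rab, Rabs past the threshold with or without the block, the 2 highest and 2 lowest of each other class, and the 2 regulators with the smallest p per role; other members are given by range. Sytl1 is given outside the rule, since it went the other way from Sytl4. A gene taken by the rule for regulators is not reported here. Alternatives were other pseudocounts, filters and thresholds, other scalings, eBayes settings, library weights, the block and leaving out each library; GC correction, alone and with the block, and leaving out both libraries numbered 3 were chosen after seeing the data.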

Additional observations from a re-analysis of the deposited data

How the results depend on the processing

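Pseudocounts of 0.1 and 0.01, no filter, quantile and median ratio scaling, and eBayes without trend or with robust moderation left 0 Rabs past the threshold, as in the main comparison. The genes called over the whole table, 148, became 93 with a filter at 5 TPM, 1994 on the scale of the authors' DESeq2 table, 3500 with library weights (whose fit did not converge), 2761 with the replicate block, 380 with GC correction, 3340 with GC correction and block, 1009 without both libraries numbered 3, 394 at a threshold of 0.1 and 8 at 0.01. On the DESeq2 scale 8 of 50 Rabs were called, 8 higher and 0 lower, against 15.9% of all genes, 1858 higher and 136 lower. They were Rab1b, Rab35, Rab36, Rab37, Rab4a, Rab5c, Rab8a and Rab9. Weights called 12 of 50, against 28.2% of all genes. The replicate block called 8, against 22.3%, with 2 higher and 6 lower, sharing Rab8a and Rab37 with the DESeq2 scale. GC correction called 2 of 50, against 3.06%, and GC correction and block 14, against 26.9%. Without the libraries numbered 3 there were 3, against 8.14%, and at a threshold of 0.1 there were 2, against 3.18%. Regulators and effectors called became 1 with quantile scaling, 13 on the DESeq2 scale, 32 with weights, 18 with the replicate block, 2 with GC correction, 30 with GC correction and block, 5 without the libraries numbered 3 and 2 at 0.1. The shares of all genes at each setting, given above for the Rabs, apply here, with 0.976% under quantile scaling. On the DESeq2 scale the medians moved to 0.40 for all Rabs, 0.42 for secretory, 0.31 for endoplasmic reticulum and Golgi, 0.34 for endosomal, 0.46 for recycling and 0.30 for other Rabs. Paralog pairs that did not overlap were 13 without the libraries numbered 3. Groups of fewer libraries overlap less readily for any pair, so this count cannot be compared with that of all libraries. With all libraries kept, the ratio went one way in every numbered pair for 13 paralog pairs, some of which overlapped. The share over any 2 tested Rabs was not computed for either count, so neither speaks of paralogs in particular. Pam, at 2.21, did not pass a threshold of 0.01. The DESeq2 scale adds 0.42 to every induced-minus-basal difference before the pseudocount, and by that shift reversed 22 of 50 Rabs; among the genes named here these were Rab3c (0.26), Rab2b (0.20), Rab8b (0.16), Rab27a (0.00066), Rab31 (0.20), Rab5a (0.20), Rab13 (0.072), Rab15 (0.089), Rab23 (0.033), Rabggtb (0.15) and Appl2 (0.12). Library weights reversed 8 of 50 Rabs, Rab3d (-0.018) and Rab3c (0.092) among those the rule takes; the cause was not tested.

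Leaving out each library in turn gave 0 to 283 genes called, 0 to 0 Rabs and 0 to 0 regulators, and Pam at 1.99 to 2.48, past the threshold only without induced library 3. The count of 283 came without induced library 3, and 0 without basal library 1 or 2 or induced library 1. Ranges of the medians were -0.11 to 0.13 for all Rabs, -0.18 to 0.16 for secretory and -0.37 to 0.22 for endoplasmic reticulum and Golgi. They were -0.14 to 0.07 for endosomal, -0.01 to 0.17 for recycling and -0.17 to 0.028 for other Rabs. Paralog pairs that did not overlap were 7 to 10, again without a share over any 2 Rabs. Here too fewer libraries overlap less readily, so the range is not comparable with the count of all libraries. Differences of 29 of the 50 Rabs changed sign; among those the naming rule takes, they ran from -0.60 to 0.031 for Rab23, -0.18 to 0.28 for Rab28, -0.070 to 0.53 for Rab2a, -0.39 to 0.030 for Rab2b, -0.36 to 0.058 for Rab31, -0.32 to 0.18 for Rab3c, -0.46 to 0.12 for Rab5a, -0.065 to 0.58 for Rab7 and -0.50 to 0.11 for Rab8b. Of the rule's Rabs that kept their sign, Rab33b (-1.14 to -0.42), Rab27a (-0.57 to -0.21), Rab27b (0.20 to 0.75), Rab15 (-0.42 to -0.20), Rab3a (0.14 to 0.52), Rab3d (0.071 to 0.30), Rab9 (0.17 to 0.49), Rab12 (0.12 to 0.43) and Rab13 (-0.56 to -0.043) moved by over 1.5 times from the difference with all libraries. By that measure the rest moved less, though Rab30 still ran from -1.01 to -0.63 and Rab40b from -0.86 to -0.49. The block changed the call of no named Rab other than the 8 given above. A fit of raw counts could not be run, since the deposited values are TPM and keep no depth.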
